A study of Mus musculus with 6 samples.

Results

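The *Hox* genes were taken from the deposited expression table by their symbols, *Hoxa*, *Hoxb*, *Hoxc* or *Hoxd* followed by a number, which gave 39 of the 20405 genes with a symbol. There were 11 genes in the Hoxa cluster, 10 in Hoxb, 9 in Hoxc and 9 in Hoxd. RNA of 2 murine cell lines was hybridized to arrays of the Affymetrix Mouse Gene 1.0 ST design, which read each gene with a set of short probes, and 3 arrays were run per line. M0505 is a line of ovarian surface epithelial cells, the cell layer that covers the ovary, established from FVB/N mice and used here at early passage. STOSE is the line that arose from M0505 when these cells transformed spontaneously during long culture. Both lines grew untreated in the same medium, α-Minimal Essential Medium with fetal calf serum, EGF, ITSS and antibiotics, and neither carried an engineered gene. The age of the mice is not given in the sources used here. The STOSE arrays stand for 1 transformed line, in which passage number and transformation cannot be told apart. The labels call the 3 arrays of a line biological replicates.

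Hox proteins are transcription factors that bind DNA through a homeodomain and give cells of the embryo their position along the body axis. Within a cluster the genes lie in the order of their paralog numbers, with low numbers used toward the head and high numbers toward the tail, and genes of the same number in different clusters are close relatives. Adult cells keep part of this code, and in the female reproductive tract *Hoxa9*, *Hoxa10*, *Hoxa11* and *Hoxa13* mark successive segments from the oviduct to the vagina.

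STOSE cells differed from M0505 cells most at a few neighbouring genes of 2 clusters. *Hoxd9*, *Hoxd10* and *Hoxd11* fell in STOSE cells, the latter 2 by more than 4 log2 units, while *Hoxc8* rose by 3.79 log2 units. Of the 39 *Hox* genes, 5 rose and 4 fell at an adjusted p under 0.05 and a change of at least 2-fold, against 4.9% of all genes higher and 7.59% lower by the same rule. The rises were *Hoxc8*, *Hoxc5*, *Hoxc6*, *Hoxa6* and *Hoxa10*, and the falls were *Hoxd10*, *Hoxd11*, *Hoxd9* and *Hoxc13*. The values are log2 robust multi-array average (RMA) values, and a difference is the mean of the STOSE arrays minus the mean of the M0505 arrays. Each adjusted p came from a limma fit in which all 20405 genes lent information on the spread, and the adjustment by Benjamini-Hochberg took in all of them.

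The 3 adjacent genes that fell together, and the gene beside them that was not called, are shown first by the 250 bases before their starts. The bases are those of RefSeq in build GRCm38.p6, written 5′ to 3′, with every CG dinucleotide in capitals.
Hoxd11, chr2:74682073-74682322, + strand: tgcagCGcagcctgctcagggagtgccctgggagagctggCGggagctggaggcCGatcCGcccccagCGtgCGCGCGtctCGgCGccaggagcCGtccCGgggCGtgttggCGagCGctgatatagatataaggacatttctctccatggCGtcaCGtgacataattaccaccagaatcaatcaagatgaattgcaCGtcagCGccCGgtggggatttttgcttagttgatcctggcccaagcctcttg
Hoxd10, chr2:74691641-74691890, + strand: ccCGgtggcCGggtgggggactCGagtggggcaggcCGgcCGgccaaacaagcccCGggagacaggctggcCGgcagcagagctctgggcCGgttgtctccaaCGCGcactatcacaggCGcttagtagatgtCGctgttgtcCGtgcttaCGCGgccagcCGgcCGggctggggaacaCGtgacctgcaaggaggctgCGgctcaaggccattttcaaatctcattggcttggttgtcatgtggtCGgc
Hoxd9, chr2:74697513-74697762, + strand: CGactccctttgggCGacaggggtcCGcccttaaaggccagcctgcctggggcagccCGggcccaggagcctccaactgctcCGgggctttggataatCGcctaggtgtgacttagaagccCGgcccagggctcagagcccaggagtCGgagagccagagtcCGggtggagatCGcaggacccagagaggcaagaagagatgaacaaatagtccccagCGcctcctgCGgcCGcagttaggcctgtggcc
Hoxd8, chr2:74704365-74704614, + strand: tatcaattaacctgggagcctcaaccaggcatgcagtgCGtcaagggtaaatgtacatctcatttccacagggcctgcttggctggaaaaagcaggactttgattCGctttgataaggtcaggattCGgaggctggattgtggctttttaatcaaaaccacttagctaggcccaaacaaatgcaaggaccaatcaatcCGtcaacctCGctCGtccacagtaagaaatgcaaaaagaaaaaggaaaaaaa
The windows of *Hoxd11* and *Hoxd10* each held 20 CG dinucleotides, that of *Hoxd9* 13 and that of *Hoxd8* 6. The median over 32841 windows of the same length was 6, and 18.0% of them held at least 20. Among the 24 windows that could be matched to 22 of the 39 *Hox* genes, 33.3% held at least 20 CG dinucleotides and the median was 12.5. Such windows also lay before genes called higher, *Hoxa6* with 24 and *Hoxa10* with 20 at 1 of its starts. Others lay before genes not called, *Hoxa5* with 28, *Hoxd1* with 24, *Hoxd13* with 31 and *Hoxa13* with 35. *Hoxd11* had another annotated start, whose window held 2. The motif TGATNNAT, bound by Hox proteins together with Pbx proteins, was searched on both strands and was found in the window shown for *Hoxd11* and in none of the other 3. It was present in 7.69% of all windows and in 16.7% of the 24 *Hox* windows. The motif TATAAA, the TATA box, was found on either strand in 12.4% of all windows, in 16.7% of the 24 *Hox* windows and in none of these 4. The arrays measured RNA, and DNA methylation or binding at these windows was not measured.

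The plot of *Hox* values by array shows each gene that is reported here. Olfactory receptor genes, which these cells are taken not to use, served as background, and over their 1134 probe sets the median log2 value was 3.12 and the 95th percentile was 4.74. Above the latter, called the background level here, 30 *Hox* genes lay on every array of at least 1 line. The 9 that were not were *Hoxa2*, *Hoxa9*, *Hoxa11*, *Hoxa13*, *Hoxc11*, *Hoxc12*, *Hoxd1*, *Hoxd12* and *Hoxd13*. A stricter level of 6.49, from 155 probe sets of keratin associated protein and vomeronasal receptor genes, left 16 *Hox* genes above it.

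**Figure D1:**
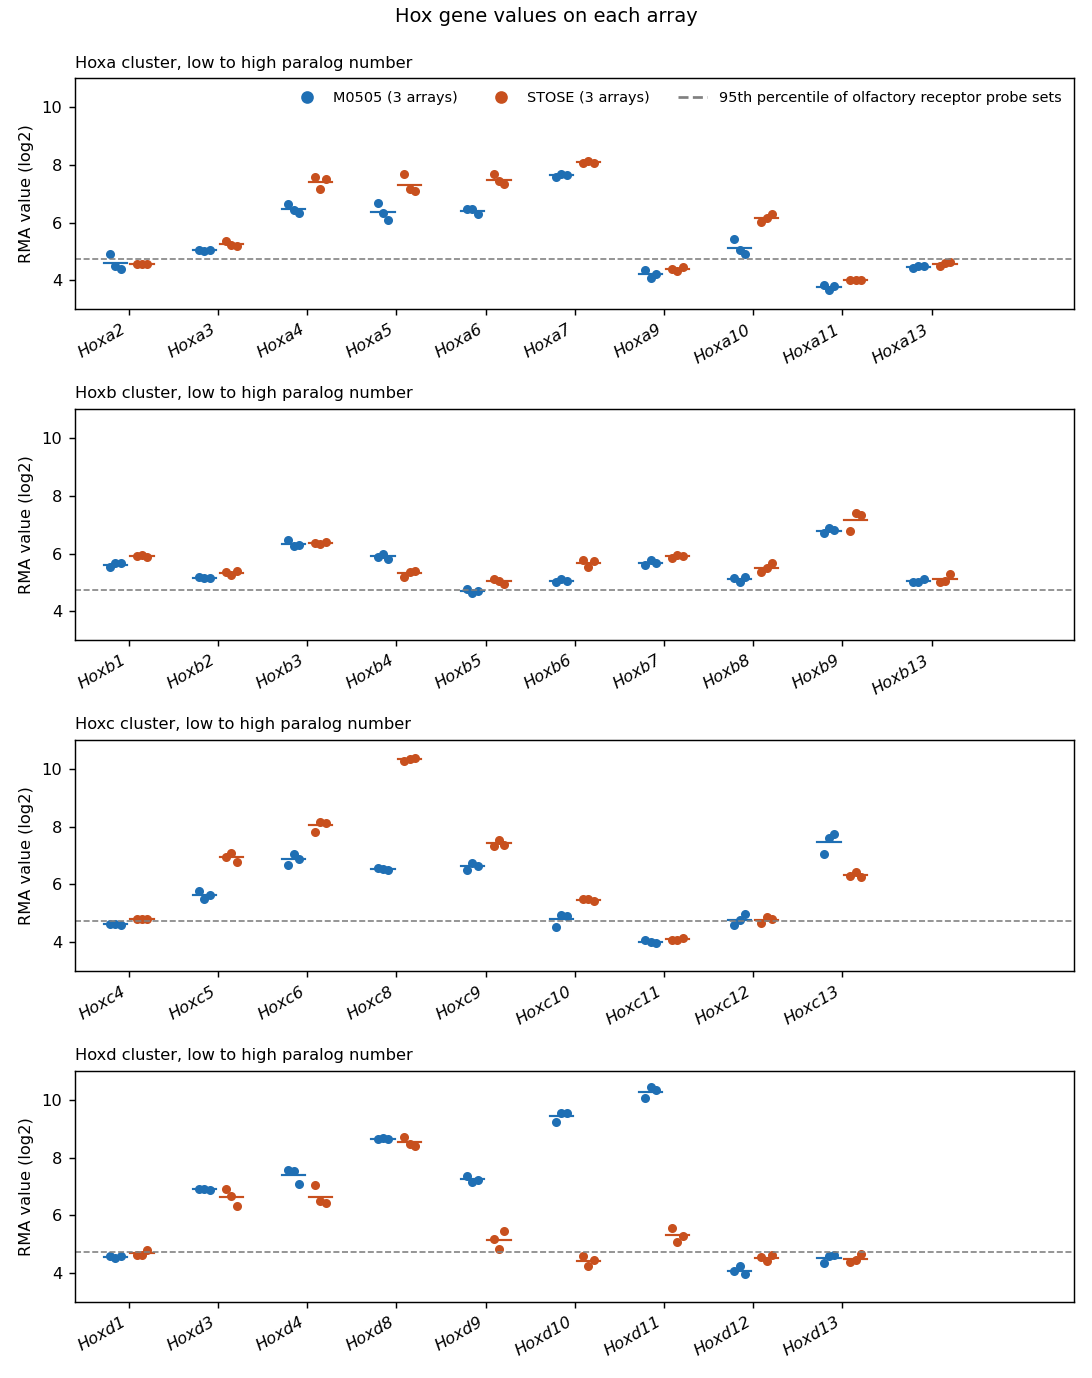
Log2 RMA values of the *Hox* genes reported here on each M0505 (blue) and STOSE (orange) array, in 1 panel per cluster and in order of paralog number, with a bar at the mean of 3 arrays and a dashed line at 4.74, the 95th percentile of olfactory receptor probe sets. *Hoxd9*, *Hoxd10* and *Hoxd11* stand apart by the size of their fall and *Hoxc8* by that of its rise, while many other genes also have points that do not overlap. Values of different genes come from different probe sets and are not to be set against each other.

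In the Hoxd cluster, *Hoxd10*, which takes part in patterning the lumbar spinal cord and the limb, had log2 values of 9.23, 9.55 and 9.54 on the M0505 arrays and 4.60, 4.23 and 4.44 on the STOSE arrays. No STOSE array reached the M0505 range, and none was above background. *Hoxd10* was thus at least 26.0-fold lower in STOSE cells, measured against the background level, with a fitted log2 difference of -5.02 ± 0.12 (SE) and an adjusted p of 1.45e-08 in limma.

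*Hoxd11*, which acts with *Hoxa11* in the forelimb and the kidney, had values of 10.05, 10.43 and 10.35 on the M0505 arrays and 5.55, 5.07 and 5.27 on the STOSE arrays. All M0505 arrays were far above all STOSE arrays, and the STOSE arrays remained above the background level but below the stricter one. The linear fold change was -31.5, the minus sign marking a lower value in STOSE cells (log2 difference -4.98 ± 0.14 (SE), adjusted p 3.45e-08 in limma). Among the 1548 genes called lower, ordered by the size of the fitted fall, *Hoxd11* was at place 43, and *Hoxd10*, whose fall is a bound, was given no place.

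*Hoxd9*, which acts in the limb and the lower spine, had values of 7.34, 7.15 and 7.23 on the M0505 arrays and 5.19, 4.81 and 5.44 on the STOSE arrays. Again no array overlapped, and the spread among the STOSE arrays (SD 0.32) was larger than among the M0505 arrays (SD 0.10). The STOSE arrays lay close above the background level and below the stricter one. The linear fold change was -4.28 (log2 difference -2.10 ± 0.14 (SE), adjusted p 5.15e-06 in limma). A fall of at least 4-fold was called for 2.49% of all genes and for *Hoxd9*, *Hoxd10* and *Hoxd11* among the 39 *Hox* genes. When each array was left out in turn, the log2 difference ranged from -2.24 to -1.93 for *Hoxd9*, from -5.12 to -4.92 for *Hoxd10*, as fitted with its STOSE arrays at background, and from -5.10 to -4.86 for *Hoxd11*.

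The gene on the low-numbered side of these 3 was not called. *Hoxd8* had values of 8.64, 8.69 and 8.66 on the M0505 arrays and 8.71, 8.47 and 8.39 on the STOSE arrays. The lines overlapped, and the log2 difference was -0.13 ± 0.09 (SE) with an adjusted p of 0.209 in limma. *Hoxd12* and *Hoxd13*, which pattern the digits, were not above background on every array of either line, so that no fall could have been seen there. Within arrays, the difference between the lines was lower by 1.96 log2 units for *Hoxd9* than for *Hoxd8*, a description with no test, since the pair was chosen after its values were seen.

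On the low-numbered side of the Hoxd cluster the differences were small. *Hoxd4*, a hindbrain and neck gene, had values of 7.56, 7.52 and 7.07 on the M0505 arrays and 7.04, 6.48 and 6.42 on the STOSE arrays. The lines lay just apart, and the log2 difference of -0.74 had an adjusted p of 0.00928 but stayed under 2-fold. *Hoxd3* had a log2 difference of -0.27 with overlapping lines and an adjusted p of 0.104. *Hoxd1* was not above background on every array of either line. Since the arrays read RNA of whole cultures, fewer cells that express a gene and less RNA per cell cannot be told apart in any of these values.

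In the Hoxc cluster, *Hoxc8*, which patterns the thoracic skeleton and the motor neurons of the arm, had log2 values of 6.56, 6.55 and 6.50 on the M0505 arrays and 10.29, 10.34 and 10.37 on the STOSE arrays. The ranges of the lines were well apart, and the arrays of each line lay within a narrow range (SD 0.03 and 0.04). The linear fold change was 13.9 (log2 difference 3.79 ± 0.06 (SE), adjusted p 2.38e-09 in limma), at place 40 by size among the 1000 genes called higher. With each array left out in turn, the log2 difference stayed between 3.78 and 3.82.

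The neighbours of *Hoxc8* had smaller differences. *Hoxc5* had values of 5.76, 5.51 and 5.62 on the M0505 arrays and 6.95, 7.07 and 6.79 on the STOSE arrays. *Hoxc6*, also a gene of the thoracic level, had values of 6.67, 7.06 and 6.90 and of 7.82, 8.18 and 8.14, respectively. In both genes the lines did not overlap, and both rose, by a linear fold change of 2.48 for *Hoxc5* (adjusted p 6.29e-06) and of 2.25 for *Hoxc6* (adjusted p 6.98e-05). Within arrays, the difference between the lines was larger for *Hoxc8* than for *Hoxc6* by 2.63 log2 units and than for *Hoxc9* by 3.00 log2 units, pairs likewise chosen after their values were seen.

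*Hoxc9* and *Hoxc10* passed the adjusted p but not 2-fold, with log2 differences of 0.79 and 0.68. *Hoxc4* had a log2 difference of 0.17 (adjusted p 0.0266) and was above background only on the STOSE arrays. *Hoxc13*, known for its part in hair and nails, moved the other way, with values of 7.05, 7.62 and 7.73 on the M0505 arrays and 6.30, 6.42 and 6.27 on the STOSE arrays. Its STOSE arrays were above the background level but below the stricter one. The lines did not overlap, the M0505 arrays were more spread (SD 0.37), and the linear fold change was -2.20 (adjusted p 0.000371). *Hoxc11* and *Hoxc12* between them were not above background on every array of either line. The Hoxc cluster thus held rises at *Hoxc5*, *Hoxc6* and *Hoxc8* and a fall at its high-numbered end.

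In the Hoxa cluster, the 4 genes from *Hoxa4* to *Hoxa7* were higher in STOSE cells by adjusted p, and their arrays did not overlap between the lines. *Hoxa6* had values of 6.47, 6.47 and 6.29 on the M0505 arrays and 7.68, 7.44 and 7.33 on the STOSE arrays. It rose by a linear fold change of 2.10 (log2 difference 1.07 ± 0.10 (SE), adjusted p 3.32e-05). *Hoxa4* and *Hoxa5* lay just under the threshold, with linear fold changes of 1.94 and 1.92, and *Hoxa7*, described in ovarian carcinomas, had one of 1.37 (adjusted p 0.000233). A further quantile normalization moved *Hoxa4* and *Hoxa5* past 2-fold, to log2 differences of 1.04 and 1.03. Leaving out M0505 array 1 did so as well (1.04 and 1.10), as did leaving out STOSE array 2 (1.09 and 1.02) and, for *Hoxa5* alone, STOSE array 3 (1.06). Without STOSE array 1, *Hoxa6* had a log2 difference of 0.97 and lost its call.

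*Hoxa10*, needed for the development and receptivity of the uterus, had values of 5.44, 5.06 and 4.93 on the M0505 arrays and 6.02, 6.16 and 6.30 on the STOSE arrays. The lines did not overlap, and all arrays of both lines were above the background level but below the stricter one of 6.49. The linear fold change was 2.02 (log2 difference 1.02 ± 0.13 (SE), adjusted p 0.00023). This call lay at the threshold, with a log2 difference of 0.98 without M0505 array 2, 0.91 without M0505 array 3 and 0.95 without STOSE array 3. *Hoxa9*, *Hoxa11* and *Hoxa13*, the other genes that mark segments of the reproductive tract, were not above background on any array. Toward the low-numbered end, *Hoxa2*, which patterns the second pharyngeal arch, was near background. *Hoxa3* had 2 probe sets that moved in opposite directions, by 0.21 (adjusted p 0.0238) for the brighter and by -0.22 (adjusted p 0.0361 among all probe sets) for the other, so that no direction was settled.

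In the Hoxb cluster no gene was called, and all 10 genes were above background in at least 1 line. The largest log2 differences were those of *Hoxb6*, at 0.62 (adjusted p 0.000207), and *Hoxb4*, at -0.59 (adjusted p 0.00022). *Hoxb4*, known for expanding blood stem cells, had values of 5.89, 5.99 and 5.83 on the M0505 arrays and 5.19, 5.36 and 5.39 on the STOSE arrays. The ranges were apart, and it was the gene of this cluster that was lower by adjusted p, while *Hoxb1*, *Hoxb2*, *Hoxb5*, *Hoxb6*, *Hoxb7* and *Hoxb8* were higher, by 0.17 to 0.62 on the log2 scale. *Hoxb3* and *Hoxb13*, a prostate gene, differed by 0.03 and 0.07 with overlapping lines. *Hoxb9* had a log2 difference of 0.38 and an adjusted p of 0.0639, with STOSE array 1 at 6.79 among the M0505 arrays and the other STOSE arrays at 7.40 and 7.33.

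The clusters were then set side by side, as counts and medians with no test, since genes of a cluster are not replicates. By the adjusted p alone, 20 *Hox* genes were higher and 6 lower, where 31.6% and 24.8% of all genes passed in these directions. The arrays of the lines did not overlap, with STOSE higher, in 22 *Hox* genes and with STOSE lower in 6, against 37.6% and 27% of all genes. Both counts of higher genes take in *Hoxa11* and *Hoxd12*, which were not above background on any array. They also take in *Hoxa3*, for which no direction was settled. The count without overlap further holds *Hoxc11* and *Hoxd1*, not above background on every array of either line. The median log2 difference was 0.24 for Hoxa, 0.27 for Hoxb, 0.68 for Hoxc and -0.27 for Hoxd. It was 0.17 over the 39 *Hox* genes and 0.08 over all genes. The Hoxd median moved between -0.41 and -0.12 when an array was left out. In the plot of differences by paralog number, Hoxd is the cluster in which most genes, 7 of 9, lay below 0, as did 8018 of all 20405 genes. Of these 7, 4 were lower by adjusted p, *Hoxd3* and *Hoxd8* overlapped between the lines, and *Hoxd13* was not above background.

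The other genes of the chromosomes that carry the clusters were read for comparison, again with no test. Their median log2 difference was 0.08 on chromosome 6 (Hoxa), 0.11 on chromosome 11 (Hoxb), 0.16 on chromosome 15 (Hoxc) and 0.08 on chromosome 2 (Hoxd). On chromosome 2, 77 of the 1678 other genes were called higher and 86 lower. On chromosome 15, 51 of 742 were called higher and 48 lower. The counts were 52 and 75 of 1073 on chromosome 6 and 64 and 109 of 1525 on chromosome 11. Over all genes, 4.9% were called higher and 7.59% lower.

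By position, the counts are set beside 12.5% of all genes called in either direction. Without the fold threshold, 31.6% of all genes were higher and 24.8% lower. Of the 8 genes of paralog groups 1 to 3, 0 were called by limma, which for so few genes is near the share of all genes. In these groups 3 had an adjusted p under 0.05, among them *Hoxa3*, for which no direction was settled, and the median log2 difference was 0.09. Of the 15 genes of groups 4 to 8, 4 rose and 0 fell, 14 had an adjusted p under 0.05 (12 higher and 2 lower), and the median was 0.45. Of the 16 genes of groups 9 to 13, 1 rose and 4 fell, 7 were not above background, and the median was 0.10. By adjusted p alone, 5 of these 16 were higher and 4 lower. The 5 include *Hoxa11* and *Hoxd12*, which were not above background on any array. In groups 4 to 8 the median was 0.95 in Hoxa, 0.33 in Hoxb, 1.24 in Hoxc and -0.44 in Hoxd. In groups 9 to 13 it was 0.20, 0.22, 0.08 and -2.10, respectively. Genes of the same number had different calls across clusters: *Hoxd10* fell while *Hoxa10* rose, and *Hoxc8* rose while *Hoxd8* was not called.

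**Figure D2:**
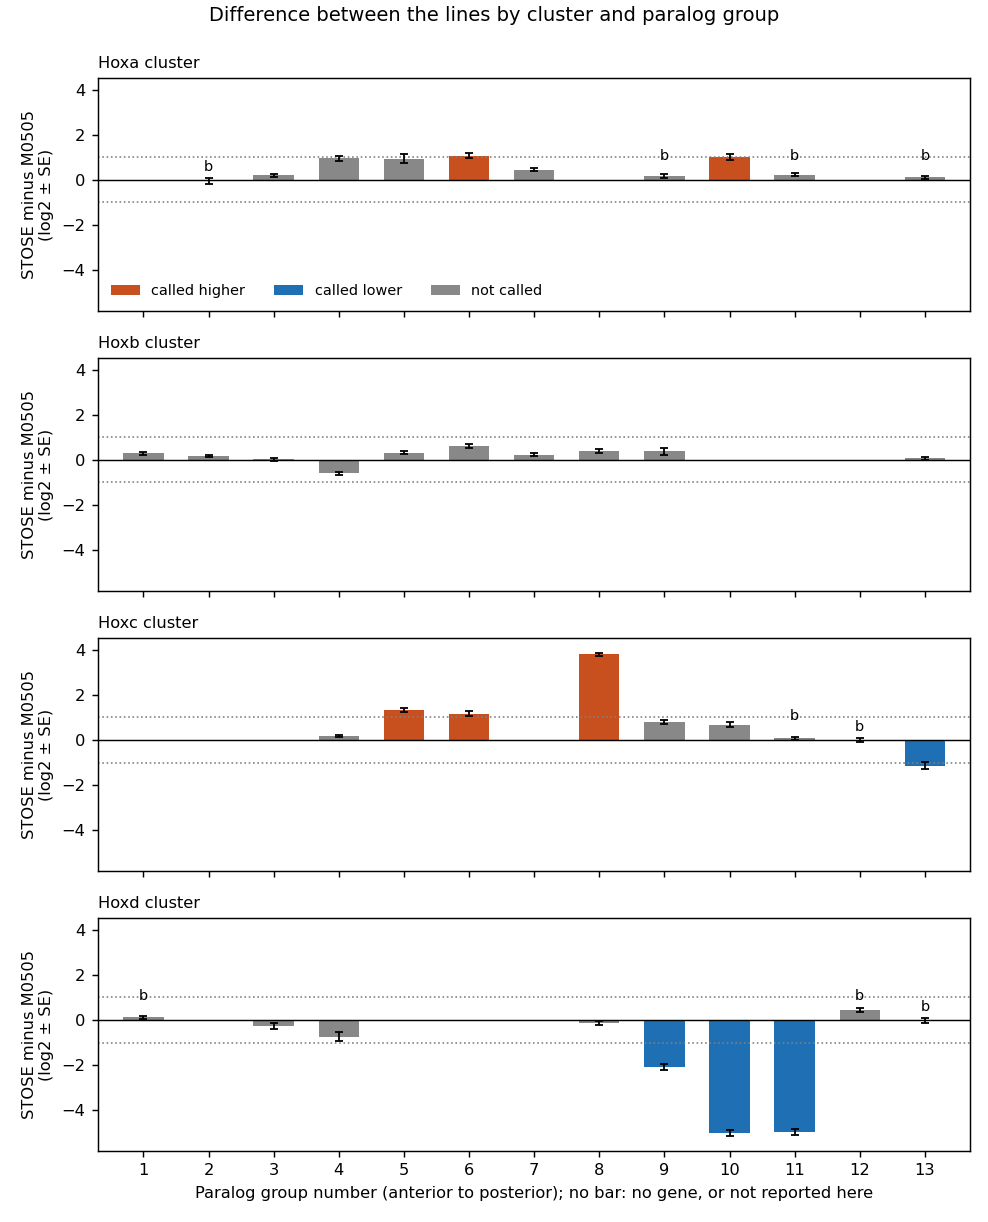
Log2 difference between STOSE and M0505 cells (bars, with the SE from limma) for each *Hox* gene reported here, by cluster and paralog group, where orange marks genes called higher, blue genes called lower, grey genes not called, b a gene not above background on every array of either line, and dotted lines 2-fold. The bars of *Hoxd9*, *Hoxd10* and *Hoxd11* reach -2.10, -5.02 and -4.98, that of *Hoxd10* being fitted against STOSE arrays at background, and that of *Hoxc8* reaches 3.79, while no bar of the Hoxb cluster passes 2-fold.

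The genes in and beside the clusters were read from the same fit, to see whether the changes ran past the *Hox* genes. They were every other gene of the array placed between the outermost *Hox* genes of a cluster and the 3 nearest genes on each side in the RefSeq order, 25 in all. None of them rose at 2-fold in limma and 1 fell, near the shares of all genes (4.9% higher and 7.59% lower), and 11 were higher by adjusted p alone, beside 31.6% of all genes. This was *Calcoco1*, a transcriptional coactivator and autophagy gene beside *Hoxc13*, with a log2 difference of -1.57 (adjusted p 8.89e-07).

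At the high-numbered end of Hoxd, *Evx2*, a homeobox gene that shares the limb enhancers of *Hoxd13*, had values of 5.93, 6.13 and 6.06 on the M0505 arrays and 6.19, 6.11 and 6.38 on the STOSE arrays. The lines overlapped, and the log2 difference was 0.19 with an adjusted p of 0.0943. *Lnp* (*Lnpk*), the next gene, which shapes the endoplasmic reticulum, was higher by a linear fold change of 2.00 that lay just under the threshold (log2 difference 1.00 ± 0.06 (SE), adjusted p 2e-06). *Mtx2*, at the other end, was higher by 0.36 on the log2 scale. The noncoding RNA *1700109F18Rik* (*Hoxd3os1*), inside the Hoxd cluster, was higher by 0.54 (adjusted p 0.0048). The fall within Hoxd had *Hoxd8*, which was not called, beside it on the low-numbered side. On the other side, *Hoxd12* and *Hoxd13* lay between *Hoxd11* and *Evx2* and were not above background on any array. *Evx2* was above the background level but under the stricter level of 6.49 on all arrays. Where the fall ended on that side was therefore not shown.

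Beside Hoxc on the low-numbered side, *Smug1*, a DNA repair glycosylase, had a log2 difference of 0.16, *Cbx5* one of 0.51 and *Hnrnpa1* one of 0.78. Beside Hoxa, *Evx1* had a log2 difference of 0.28 and *Skap2* one of -0.51. The 6 genes beside Hoxb lay between -0.05 and 0.57.

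**Figure D3:**
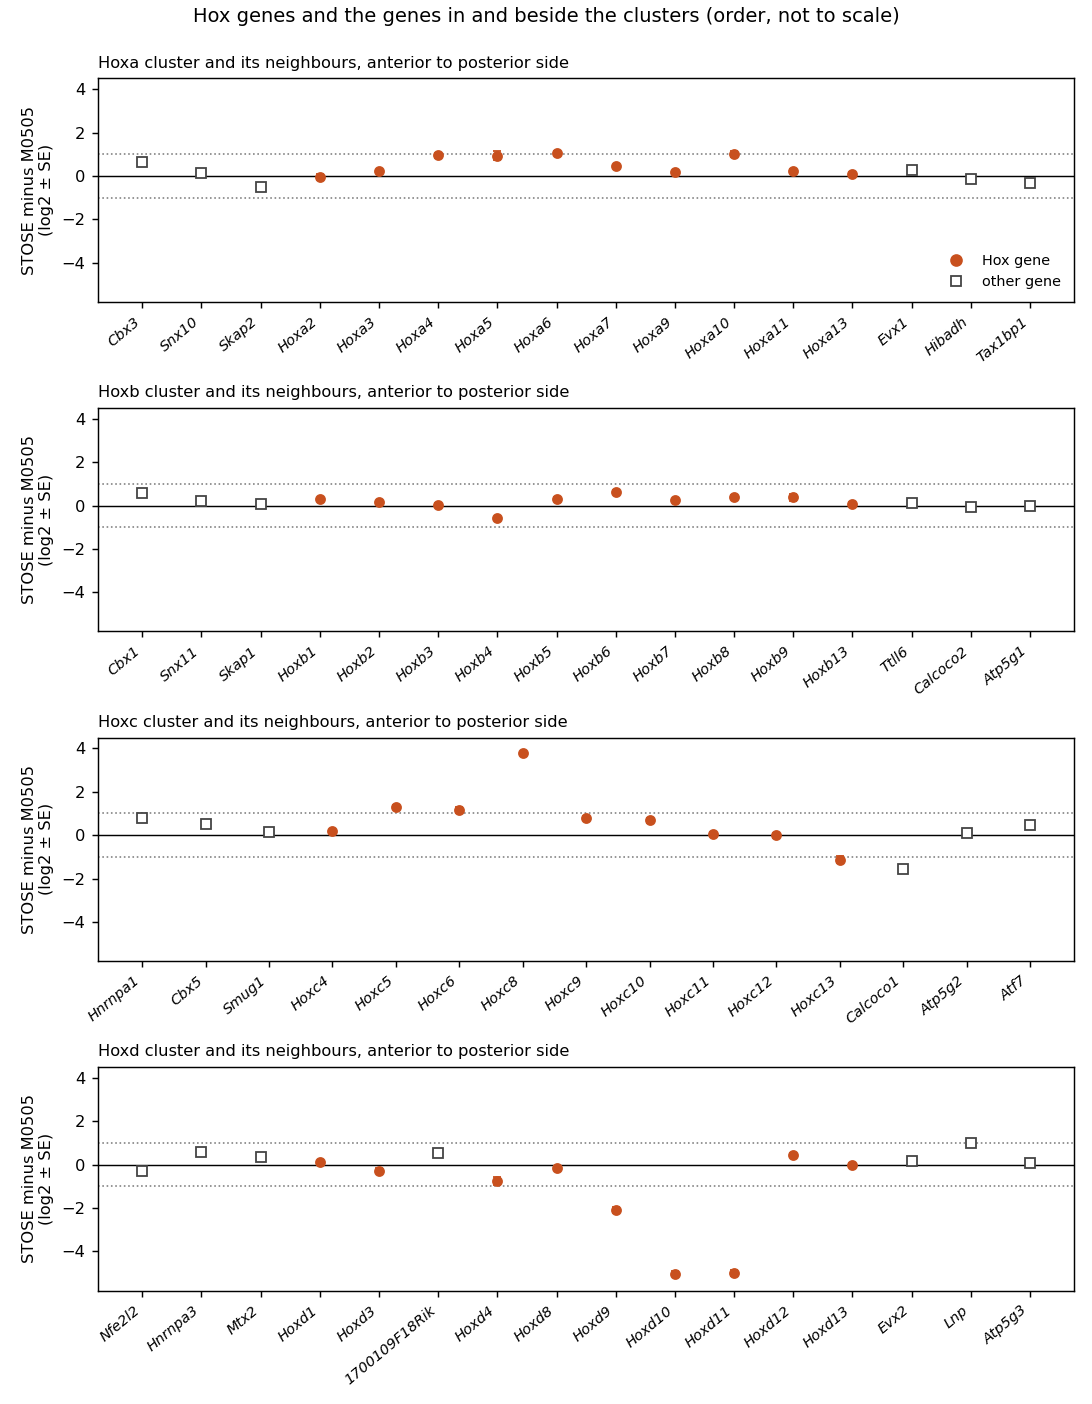
Log2 difference between STOSE and M0505 cells (SE bars from limma, mostly smaller than the symbols) for *Hox* genes (filled circles) and the other genes in and beside each cluster (open squares), in gene order and not to scale, with dotted lines at 2-fold. *Calcoco1* at -1.57 is the open square past 2-fold, and *Lnp* at 1.00 lies on the line.

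Hox proteins bind DNA with cofactors of the Pbx, Meis and Pknox families. Of these 9 cofactor genes 0 rose and 1 fell, near the shares of all genes (4.9% higher and 7.59% lower). The fall was that of *Pknox2*, with a log2 difference of -1.80 ± 0.08 (SE) and an adjusted p of 6.31e-07. By adjusted p alone, 3 were higher and 5 lower, beside 31.6% and 24.8% of all genes. Among them were *Meis1* at 0.60, *Meis2* at -0.70 and *Pbx3* at -0.65. All 9 were above background in both lines.

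Retinoic acid, made from vitamin A, is a known inducer of *Hox* genes. Of 17 genes for its supply, breakdown and receptors, 0 rose and 5 fell, where 4.9% of all genes were called higher and 7.59% lower. By adjusted p in limma alone, 3 were higher and 8 lower, beside 31.6% and 24.8% of all genes. The receptors *Rarg* and *Rxra* were among the higher, at 0.50 and 0.35 on the log2 scale. The breakdown genes *Cyp26b1* and *Cyp26a1*, the latter near background, were among the lower, at -0.79 and -0.41. *Aldh1a2*, which makes retinoic acid, had values of 11.29, 11.42 and 11.39 on the M0505 arrays and 4.08, 4.11 and 3.67 on the STOSE arrays. The lines did not overlap, no STOSE array was above background, and *Aldh1a2* was at least 98.6-fold lower (adjusted p 3e-09). *Stra6*, the receptor that takes up retinol, had a log2 difference of -5.40, and *Rdh10*, which makes retinal, one of -3.69. *Rarb*, a retinoic acid receptor that retinoic acid itself induces, was at least 8.42-fold lower (adjusted p 4.06e-05), with M0505 array 1 at 8.73 and the other M0505 arrays at 7.37 and 7.35. The part of the retinoic acid genes in the *Hox* values was not tested. The 8 *Cdx* and segmental activators of *Hox* genes held 0 calls in limma. By adjusted p alone 3 of these were higher and 2 lower, beside 31.6% and 24.8% of all genes. The largest differences were *Nr6a1* at -0.57 and *Gdf11* at -0.46.

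Polycomb proteins keep *Hox* genes silent and Trithorax proteins keep them active. Of the 11 genes of the Polycomb complex PRC2, 0 rose and 2 fell, beside 4.9% and 7.59% of all genes. The falls were *Jarid2*, which brings the complex to DNA, with a log2 difference of -1.40 and *Ezh1*, a methyltransferase subunit, with one of -1.07. The core subunits *Ezh2*, *Eed* and *Suz12* were higher by adjusted p but not by 2-fold, with log2 differences of 0.56, 0.67 and 0.57. Of the 18 PRC1 genes measured among 19 listed, *Pcgf5* rose by 1.08 on the log2 scale, and by 0.78 as the mean of its probe sets, which is under 2-fold. None of the 14 Trithorax and demethylase genes measured among 16 was called in limma. By adjusted p alone 6 of these were higher and 2 lower, beside 31.6% and 24.8% of all genes. The largest differences were *Kmt2c* (*Mll3* on the array) at -0.86 and *Wdr5* at 0.67. These lists were also compared with no test of a list, and the median log2 difference was -0.28 for the cofactors, -0.26 for the retinoic acid genes, -0.01 for PRC2, 0.15 for PRC1 and 0.10 for Trithorax.

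Of 12 genes reported elsewhere as targets of Hox proteins, 3 rose and 2 fell, beside 4.9% and 7.59% of all genes. By adjusted p in limma alone, 3 were higher and 5 lower, beside 31.6% and 24.8% of all genes. *Itgb3*, an integrin subunit reported under *Hoxd3* and *Hoxa10*, had values of 4.84, 5.16 and 5.10 on the M0505 arrays and 8.07, 8.15 and 8.06 on the STOSE arrays. The lines did not overlap, and the linear fold change was 8.34 (adjusted p 5.03e-08). *Gdnf*, a growth factor of the developing kidney under the group 11 genes, rose by 2.81 on the log2 scale. Of those genes, *Hoxd11* fell, and *Hoxa11* and *Hoxc11* were not above background. *Epha7*, a receptor of the limb and the nervous system, rose by 1.28. The part of the *Hox* genes in these target values was not tested. *Emx2*, reported to be repressed by *Hoxa10* in the endometrium, fell by 1.55, and *Bmp2*, at background in STOSE cells, was at least 1.31-fold lower. The other targets were not called, with log2 differences of 0.19 for *Igfbp1*, 0.07 for *Six2*, -0.06 for *Cdkn1a* and -0.14 for *Bmp7*. *Fgf2*, *Itga8* and *Ncam1* were lower by adjusted p alone, at -0.33, -0.43 and -0.46. *Itga8* was not above background on every array of either line.

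**Figure D4:**
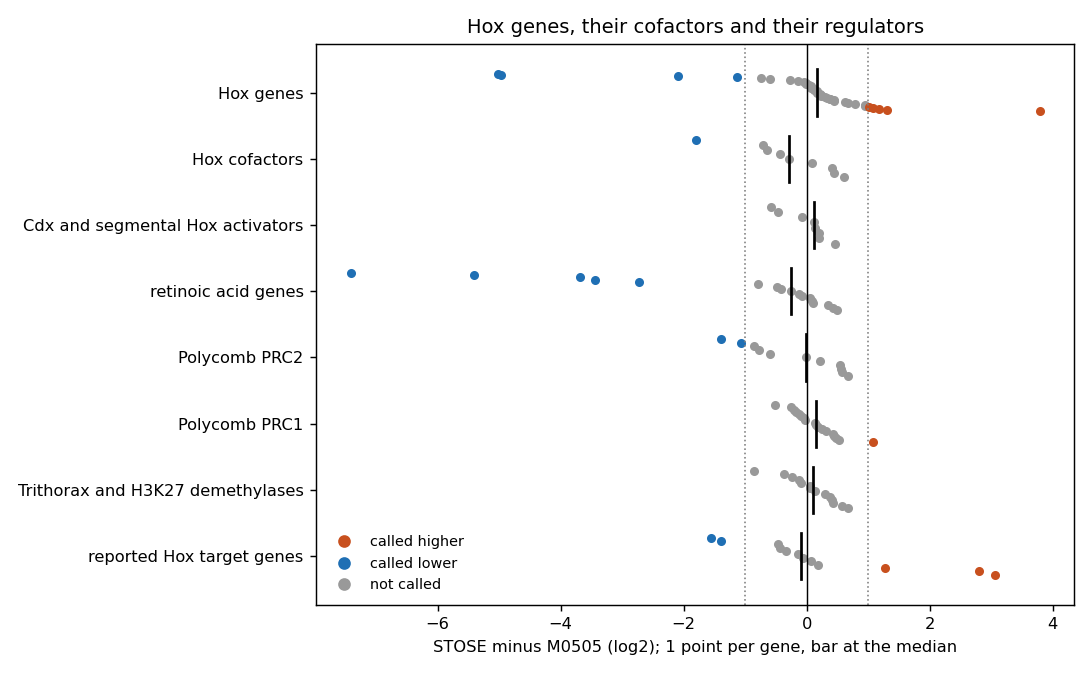
Log2 difference between STOSE and M0505 cells for the *Hox* genes and the 7 lists of cofactors, regulators and reported targets, with 1 point per gene, orange for called higher, blue for called lower, grey for not called, a bar at the median of each list and dotted lines at 2-fold. The retinoic acid list has 5 blue points, and the lowest points of this list (*Aldh1a2*, at least 98.6-fold lower) and of the *Hox* genes (*Hoxd10*, at least 26.0-fold lower) are fitted against STOSE arrays at background.

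Markers of the labelled cell type also differed between the lines. Of 12 markers of ovarian surface epithelium and mesothelium, 11 were above background in at least 1 line. Of the 12, 0 rose and 5 fell, beside 4.9% and 7.59% of all genes. By adjusted p in limma alone, 9 were lower and 1 higher, where 24.8% of all genes were lower and 31.6% higher. The higher one was *Nr2f2*, with a log2 difference of 0.53. *Cdh2* had one of 0.18 (adjusted p 0.0588 in limma). *Wt1* had a mean of 11.39 in M0505 and 10.76 in STOSE cells, *Upk3b* 12.25 and 11.91, and *Msln* 11.13 and 10.52, while *Krt19* and *Krt8* had log2 differences of -5.56 and -4.55. The summed linear RMA values of the 12 markers were 25416 to 26484 on the M0505 arrays and 13352 to 14114 on the STOSE arrays. The sums of 6 granulosa markers were 1126 to 1250 and 234 to 256, with falls of *Inha* and *Nr5a1*, those of 4 Müllerian duct and oviduct markers 129 to 135 and 220 to 256, with a rise of *Ovgp1*, and those of 6 stromal markers 5213 to 5648 and 4806 to 5198, with 0 calls and 3 higher and 1 lower by adjusted p in limma. The sums of 5 endothelial markers were 827 to 905 and 109 to 110, of which *Kdr* carried the fall while *Pecam1* and *Emcn* were at background in both lines. The sums of 6 leukocyte markers were 814 to 1070 and 208 to 256, of which *Cd68* carried the fall while *Ptprc*, the defining leukocyte gene, was at background on all arrays. The part of these markers in the *Hox* values was not tested.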

How the data were processed

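Total RNA of 3 M0505 and 3 STOSE cultures was hybridized to Affymetrix Mouse Gene 1.0 ST arrays. The authors deposited log2 RMA values, background corrected, quantile normalized and summarized per probe set, made with Affymetrix Expression Console per the submitters' processing notes; its version and the genome build are not given in the sources used here. Quantile normalization holds the distribution of values alike on all arrays, so a shift of most genes together would not be seen. The deposited columns of line means and linear fold changes were not used, and 0 columns of values were left over.

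The table held 28944 probe sets, 23530 with a symbol, for 20405 genes with log2 values from 1.40 to 12.81, and each gene was represented by its brightest probe set, by the mean of all 6 arrays. *Hoxa3* alone among the *Hox* genes had more than 1. Pearson's r across genes was 0.997 to 0.999 between arrays of a line and 0.943 to 0.950 between lines. Precision is limited by there being 3 arrays per line.

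In R 4.3.3, limma 3.58.1 (lmFit, then eBayes) compared STOSE with M0505 cells, without covariates and with 4.07 prior degrees of freedom. A gene was called at an adjusted p under 0.05 and at least 2-fold. The code was tested on simulated data with 200 of 20405 genes changed. Where a line lay at background on all arrays, the fold is a bound against the background level. Gene order came from RefSeq genes of GRCm38.p6, which placed 97.5% of genes by symbol. Named were all *Hox* genes, the genes in and beside the clusters, called members of the lists or the largest 2 of a list without calls, and markers; other members named were chosen after their values were seen, and the results of a few single genes are not reported here. Members and lists were chosen with earlier results of these data known.

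Alternatives were further quantile normalization, median centring, mean of probe sets or each probe set, leaving out dim genes, an intensity trend, treat, the methods' t-test, other fold thresholds, another background level, a replicate block and leaving out each array.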

Additional observations from a re-analysis of the deposited data

How the results depend on the processing

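The fold threshold moved the counts most. Over all genes, the 2548 called in either direction became 1499 under limma's treat test against 2-fold, 11520 with no fold threshold and 695 at 4-fold. The 5 *Hox* genes higher became 3 without the dimmest 50% of genes, 1 under treat, 20 with no fold threshold and 1 at 4-fold. The 4 lower became 3 without the dimmest 50% (*Hoxd9* was left out with them), 3 under treat and at 4-fold (*Hoxc13* lost its call), and 6 with no fold threshold. *Hox* genes above background went from 30 to 16 with the other background level. With an array left out in turn, 2483 to 2656 of all genes were called, and among *Hox* genes 4 to 7 were higher and 4 lower each time. The replicate numbers were not shown to pair the arrays, since deviations of same-numbered arrays correlated at r of 0.26, 0.04 and 0.25, although 5 of 6 arrays lay closest to their own number. With the replicate number as a block, 2549 genes were called, and 5 *Hox* genes were higher and 4 lower.

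*Hoxd9*, *Hoxd10*, *Hoxd11* and *Hoxc8* kept direction and call under each alternative that tested them. Signs turned only in genes that were not called. Under further quantile normalization these were *Hoxb13* (-0.0029), *Hoxc11* (-0.021), *Atp5g2* (-0.010) and *Atp5g3* (-0.025), under the mean of probe sets *Hoxa3* (-0.0037) and *Calcoco2* (0.027), and under median centring *Hoxc12* (0.012). With an array left out, the log2 difference ranged from -0.15 to 0.12 for *Hoxa2*, -0.0067 to 0.091 for *Hoxb3*, -0.0092 to 0.12 for *Hoxb13*, -0.10 to 0.097 for *Hoxc12*, -0.11 to 0.033 for *Hoxd13* and up to 0.026 for *Calcoco2*. The cause of these changes was not tested. The RMA steps could not be varied without probe signals, and signal near background limits what can be said of 9 *Hox* genes.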

Other observations

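Among 81 homeobox genes of other families measured on the arrays, 6 rose and 4 fell in STOSE cells, near the shares of all genes, 4.9% higher and 7.59% lower, and the median log2 difference was 0.18. *Hhex*, a gene of the early liver, thyroid and blood vessels, rose by 1.81 on the log2 scale (adjusted p 3.14e-06 in limma), followed by *Zfhx3* at 1.54, *Dlx4* at 1.45, *Lhx2* at 1.34, *Six4* at 1.30 and *Isl2* at 1.10. *Dlx2*, a gene of the jaw and forebrain, had a log2 difference of -1.65 (adjusted p 3.08e-06 in limma), *Emx2*, needed for the urogenital tract, one of -1.55, *Zfhx4* one of -1.41 and *Msx1* one of -1.29.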
